A study of Mus musculus with 46 samples.

Results

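Cecum of mice fed inulin in a high fat diet was compared with cecum of mice fed the high fat diet alone, on the arrays titled HFD + inulin (n = 6) and HFD (n = 6). These 12 arrays are part of 22 cecum arrays, in a series of 46 arrays of cecum and liver. The mice were male C57BL/6, an inbred strain, 12 weeks old when the diets began and 20 weeks old when tissue was taken after 8 weeks of feeding, and they lived singly on grid floors. HFD supplied 45% of its energy as fat. HFD + inulin was the same diet except that inulin took the place of 10% of the diet by weight, taken equally from corn starch (5%) and cellulose (5%), so the diets differed in cellulose and starch as well as in inulin. The spread of each gene was estimated with the help of the other cecum arrays. These were 5 arrays of HFD + inul PB, in which inulin propionate and inulin butyrate esters, 5% each, replaced the same carbohydrate, and 5 arrays of LFD, a low fat diet with 10% of energy from fat.

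Inulin is a fructose polymer that mammalian enzymes do not digest and that bacteria of the cecum and colon ferment to acetate, propionate and butyrate. Colonocytes, the absorptive cells lining the large intestine, take up these short-chain fatty acids by carriers and burn butyrate, while goblet cells among them secrete the mucin that forms the mucus layer. RNA came from 20 mg of cecum after its contents had been removed, and the labels do not say from which end of the organ the piece was cut or how much muscle and fat it held. A probe level of such bulk tissue cannot tell fewer cells of a type apart from less RNA per cell.

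Each Agilent mouse array received the Cy3-labelled RNA of 1 sample, and its spots are 60-base probes whose brightness grows with the RNA that binds. Levels below are normalised log2 signals, in which a difference of 1 is a doubling, and they are comparable between arrays but not between genes. The number of arrays and their signal over background limit the precision. Of the spots on an array, the percent well above background was 49.8 to 55.9 (median 53.1) on HFD and 48.4 to 55.3 (median 51.7) on HFD + inulin. The tissue carried the markers of large intestinal epithelium. Epcam was 14.56 ± 0.23 on HFD and 14.47 ± 0.27 on HFD + inulin (mean ± SD, n = 6 each), Cdx2 was 14.86 ± 0.19 and 15.12 ± 0.13, and Alb and Prss2, markers of liver and pancreas, were not well above background on any of the 12 arrays. Of 11 markers in the exocrine pancreas list, however, 3 were well above background on all 12 arrays. Cela1, its brightest member, ranged from 9.01 to 11.02.

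Some arrays stood apart from their diet. HFD replicate 5 had high levels of small intestinal genes: the list of ileal enterocyte and Paneth cell markers, 14 genes of which 6 were well above background on all 12 arrays, had a mean of 5.12 on it relative to the HFD mean, against −1.39 to −0.66 on the other HFD arrays. Its level of Fabp6, the ileal bile acid binding protein, was 18.77, and the next highest HFD array had 11.04. The summed signal of the list was 643050 on this array, Fabp6 giving the largest part of it, with a median of 12242 over HFD. HFD + inulin replicate 1 showed a smaller excess, with a list mean of 1.33 and Fabp6 at 14.11. HFD + inulin replicate 4 had the lowest markers of muscle, nerve and fat, with list means of −1.41 for smooth muscle, −2.66 for enteric neuron and glia and −3.08 for adipocyte, and lay farthest out on the first principal component of the 12 arrays, which held 20.7% of the variance. Results were therefore also computed without HFD replicate 5 and HFD + inulin replicate 4 together, a setting chosen after these values were seen. The plot of list means by array shows how far they lay from the rest.

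**Figure D1:**
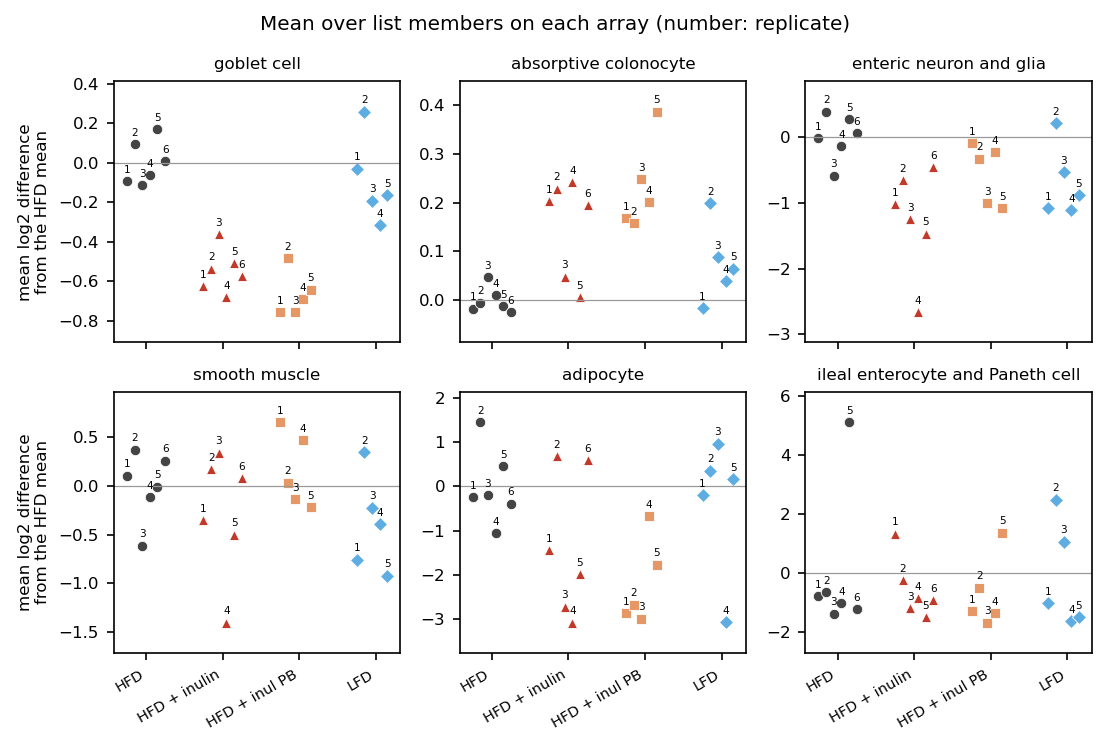
Mean over the members of 6 cell type lists on each cecum array (vertical axis, log2 difference from the mean of the HFD arrays; each point is 1 array, numbered by replicate; horizontal axis, diet). HFD replicate 5 lies at 5.12 for the ileal list, HFD + inulin replicate 4 at −2.66 for enteric neuron and glia, and the goblet cell means of HFD (−0.11 to 0.17) and HFD + inulin (−0.68 to −0.36) do not overlap.

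Genes that were higher on HFD + inulin included the short-chain fatty acid carrier Slc5a8, the calcium-sensing receptor Casr, the acute phase gene Saa2 and the growth factor Bmp2. Lower levels were found for 10 of 20 goblet cell markers, for several glutathione transferases, for the junction gene Cldn4 and for 6 of 16 markers of enteric neurons and glia. Of 55681 probe IDs, 878 (1.58%) differed between HFD + inulin and HFD by LIMMA at an adjusted P under 0.05, and 1375 had a fold difference over 1.5 with an unadjusted P under 0.01. With 1 probe per gene, 256 of 19027 known genes (1.35%) were higher and 251 (1.32%) lower at an adjusted P under 0.05. The median difference of all known genes was −0.01 on the log2 scale, with 9132 genes above 0 and 9895 below.

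A gene is called stable here when its adjusted P stayed under 0.05 in each of 22 fits that left out 1 cecum array. Of the known genes, 105 (0.552%) were stable and higher and 74 (0.389%) stable and lower, 179 in all. Whatever their P, 238 known genes (1.25%) were higher on all 6 HFD + inulin arrays than on any of the 6 HFD arrays. Likewise 206 (1.08%) were lower on all 6. Among the 507 called genes, 310 showed no overlap of the diets, but these genes were chosen on the same arrays. The count of 878 probe IDs rested on several arrays. It fell to 331 when HFD + inulin replicate 4 was left out and to 483 when replicate 3 of that diet was. It fell to 407 and 458 when HFD replicates 6 and 4 were left out, and leaving out HFD + inulin replicate 5 gave 1369. Leaving out HFD replicate 5 and HFD + inulin replicate 4 together gave 426 probe IDs, and 150 of the 179 stable genes were called.

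Each of the 3 slides that carried the 12 arrays held both diets. Of all 19027 known genes 41.5% differed in the same direction on 3 of 3 slides, and so did the 507 called genes, which were chosen on these same arrays. A fit with slide as a block called 1331 probe IDs, 357 known genes higher and 391 lower. The calls rest on the spread shared with the other diets: a fit of the 12 arrays alone called 46 probe IDs, and 29 of the 179 stable genes. With slide, row and column of the array as blocks in those 12 arrays, LIMMA called 0 probe IDs after adjustment, with 6291 at an unadjusted P under 0.05 against 7873 without the blocks and with all 22 arrays. With replicate number as a block in the 12 arrays it called 4 probe IDs and, of the 179 stable genes, 0 higher and 2 lower.

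Counted once, 863 genes in 43 lists of cell type markers and pathways were measured, of which 18 were called higher and 38 lower. The share of called members in each list is read against the shares of all known genes given above.

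**Figure D2:**
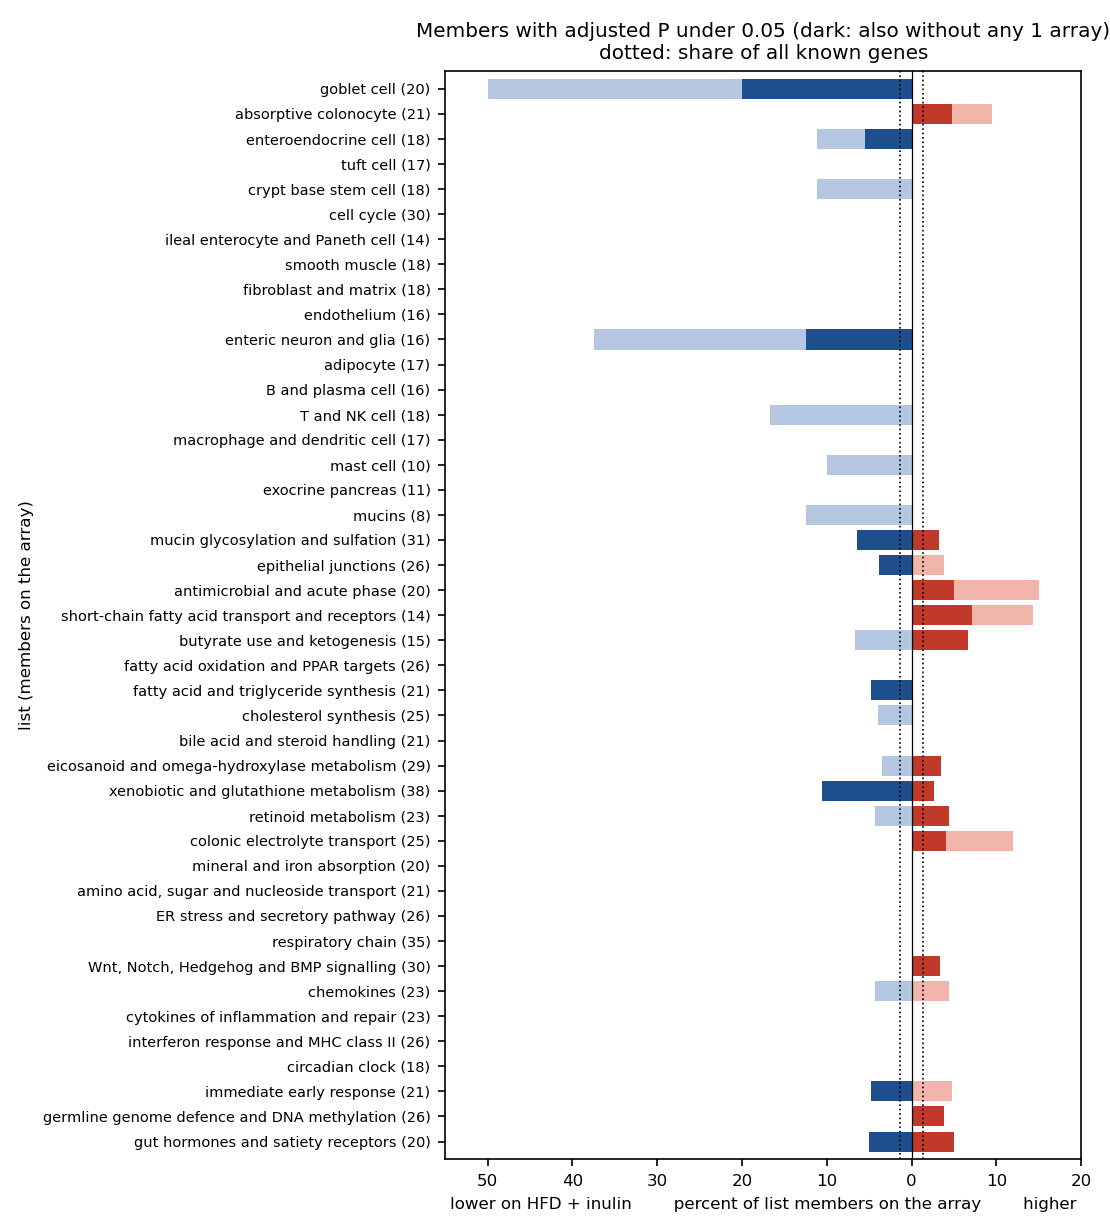
Percent of each list's members on the array with an adjusted P under 0.05, higher to the right and lower to the left (horizontal axis, percent; list names with the number of members on the vertical axis; dark bars, genes also called without any 1 array; dotted lines, the 1.35% and 1.32% of all known genes). Goblet cell (10 of 20) and enteric neuron and glia (6 of 16) reach farthest, both to the lower side, and 19 lists have no called member.

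The largest stable differences were found by taking, among genes whose arrays did not overlap and which were well above background on every array of the higher diet, the 12 with the greatest rise and the 12 with the greatest fall. Tex19.1, a gene of germ cells and placenta known for restraining retrotransposons, had levels from 3.89 to 7.38 (median 5.82) on HFD and from 8.29 to 10.55 (median 9.62) on HFD + inulin. Every inulin array lay above every HFD array, and only 3 of the HFD arrays were well above background for it, so that the size of the difference rests in part on levels near background. The gene was 13.6-fold higher (log2 difference 3.76 ± 0.54 SE, adjusted P = 0.00168). It was the only called member of 26 genes of germline genome defence and DNA methylation.

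Cyp4f15 and Ttll9 followed in size. Cyp4f15, of the cytochrome P450 4F family that hydroxylates the tail of fatty acids and eicosanoids, ranged from 5.00 to 7.84 (median 7.35) on HFD and from 10.20 to 10.89 (median 10.50) on HFD + inulin. The inulin arrays were tightly grouped, and the lowest HFD value was that of replicate 5. The fold difference was 11.4 (log2 3.52 ± 0.40, adjusted P = 0.000307). Ttll9, a tubulin-modifying enzyme, went from a median of 7.28 (5.78 to 7.82) to one of 10.51 (9.54 to 11.19) without overlap. It was 10.4-fold higher with an adjusted P of 0.00148.

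Casr, the receptor by which epithelium senses extracellular calcium, ranged from 2.80 to 6.37 on HFD and from 6.47 to 8.49 on HFD + inulin, so the diets came close to each other without overlapping. It was 4.71-fold higher (log2 2.24 ± 0.44, adjusted P = 0.0144), a size that rests in part on levels near background, since 4 HFD arrays were well above it. Ak4, a mitochondrial adenylate kinase, was 4.10-fold higher (adjusted P = 0.00301) and Gnal, a G protein alpha subunit that activates adenylate cyclase, 3.72-fold higher (adjusted P = 0.00168). Mal, a membrane proteolipid of apical transport, moved from 13.04 to 15.07 (median 14.80) on HFD to 16.24 to 16.69 (median 16.34) on HFD + inulin, a 3.66-fold rise with an adjusted P of 0.00131. The 6 inulin arrays were again close together, and the lowest HFD value, 13.04, was that of replicate 5.

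The other genes of this set that rose were Tmc1, a component of mechanosensory channels, by 1.78 on the log2 scale, the proteoglycan gene Cspg5 by 1.64, the cytochrome P450 gene Cyp2d9 by 1.63, the secreted phospholipase A2 gene Pla2g3 by 1.52 and the phospholipase C gene Plcd4 by 1.38. Of these, Cspg5 had the smallest adjusted P, 0.00168, and Tmc1 the largest, 0.0181. Tmc1 was well above background on 3 HFD arrays and Plcd4 on 4, so that the size of both differences rests in part on levels near background. Without HFD replicate 5 and HFD + inulin replicate 4, Tmc1 had an adjusted P of 0.0775. With all arrays kept, another probe of Plcd4 was not called.

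Among the genes that fell, Sema7a had the smallest adjusted P. Sema7a, a membrane-anchored semaphorin, ranged from 11.23 to 12.25 (median 11.76) on HFD and from 9.10 to 10.47 (median 9.51) on HFD + inulin. All inulin arrays lay below all HFD arrays, and the level was 4.35-fold lower (log2 −2.12 ± 0.24, adjusted P = 0.000307). Fer1l4, of the ferlin family, was well above background on 6 of 6 HFD arrays (5.84 to 7.36) and on 0 of 6 HFD + inulin arrays, so its fall is given as a bound, at least 4.96-fold (adjusted P = 0.0116, and 0.0536 after normexp background correction). Cpne4, a calcium-dependent phospholipid binding protein, ranged from 6.39 to 7.11 on HFD. It was likewise well above background on 0 of 6 HFD + inulin arrays, a fall of at least 4.57-fold (adjusted P = 0.0158). A bound here sets the HFD mean against the higher of a probe's own signal and the dimmest signal well above background on each inulin array.

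Ly6m and Lypd6b, of the Ly6 family of surface proteins, fell by 1.85 and 1.80 on the log2 scale (adjusted P = 0.00542 and 0.00168), and the serine protease gene Prss12 fell by 1.74 (adjusted P = 0.0143). Lypd6b and Prss12 were each well above background on 4 of the inulin arrays. Cnr1, the cannabinoid receptor of neurons, ranged from 7.59 to 8.81 (median 7.92) on HFD and from 3.13 to 6.71 (median 5.23) on HFD + inulin, with 3 of the inulin arrays well above background. It was 8.13-fold lower (log2 −3.02 ± 0.57, adjusted P = 0.0116), and the size of the difference rests in part on levels near background. The other genes of this set that fell included the phosphatase Dusp26 (−2.09), the growth cone protein Gap43 (−2.08), the splicing factor Rbfox1 (−1.89) and the reticulon Rtn1 (−1.65), all log2 differences. Rbfox1 was well above background on 1 of the inulin arrays, and its difference rests largely on levels near background. The adjusted P of these genes lay between 0.0116 for Dusp26 and 0.0208 for Gap43. Without HFD replicate 5 and HFD + inulin replicate 4, Dusp26 was called (adjusted P = 0.0216), and Cnr1, Gap43, Rbfox1, Rtn1 and Cpne4 had adjusted P between 0.0523 and 0.0693. With all arrays kept, another probe of Rbfox1 was not called. Of the 24 genes, 17 were called without HFD replicate 5 and HFD + inulin replicate 4. In the fit of the 12 arrays alone 9 were called, namely Tex19.1, Cyp4f15, Ttll9, Cspg5, Fer1l4, Cpne4, Sema7a, Ly6m and Lypd6b.

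**Figure D3:**
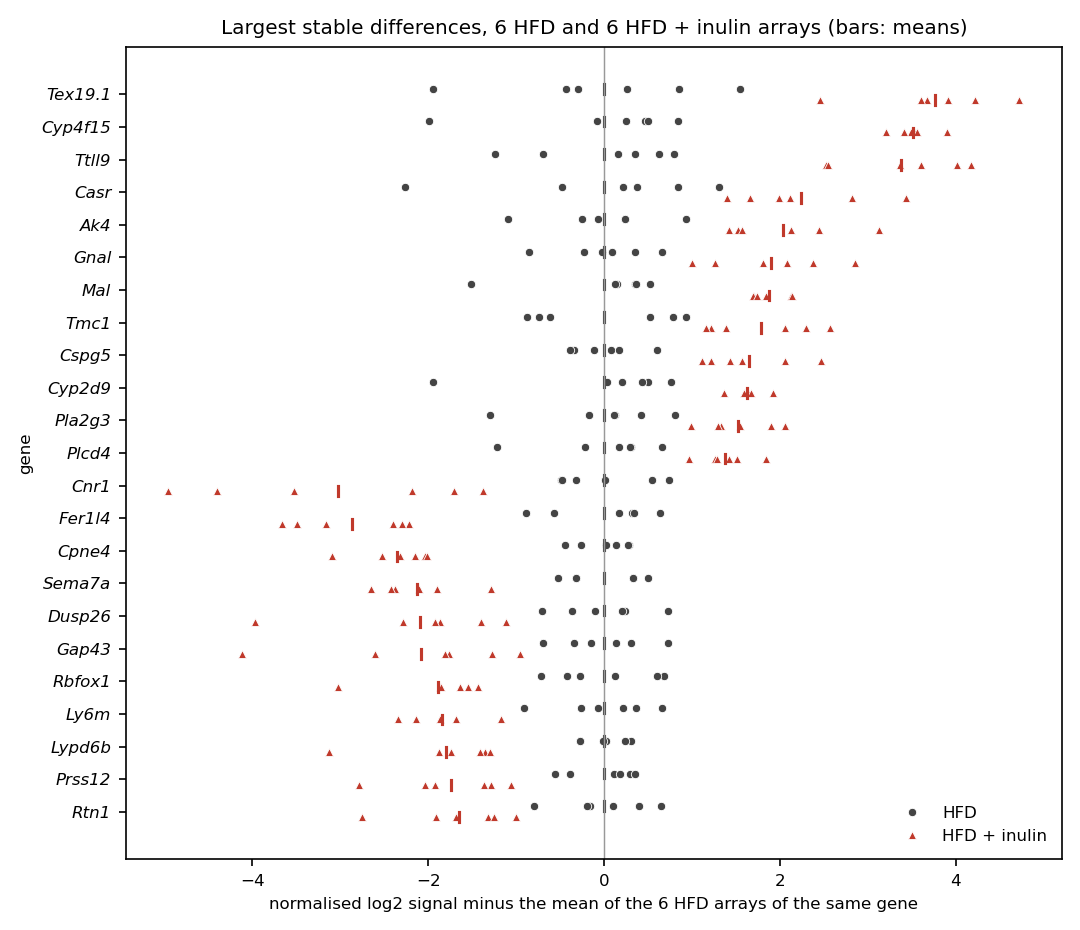
Stable genes with the largest differences, 23 of the 24, plotted by array (horizontal axis, normalised log2 signal minus the HFD mean of that gene; circles, 6 HFD arrays; triangles, 6 HFD + inulin arrays; bars, means). The diets do not overlap for any of them, as the rule required, and the mean differences run from 3.76 for Tex19.1 to −3.02 for Cnr1, each well above background on only 3 of 6 arrays of its lower diet.

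Of 20 goblet cell markers, 10 were called lower and 0 higher, against the 1.32% of known genes called lower, and 19 of 20 differences were below 0 with a median of −0.62. Capn9, a digestive tract calpain, ranged from 11.53 to 11.74 on HFD and from 10.33 to 11.26 on HFD + inulin. Bcas1 ranged from 11.12 to 11.59 and from 10.26 to 10.77. For both genes the diets were separate, with a fold difference of 1.82 for Capn9 (adjusted P = 0.00172) and 1.78 for Bcas1 (adjusted P = 0.000948). The transcription factor Creb3l4 was 1.64-fold lower (adjusted P = 0.0116) and Spink4, a secreted protease inhibitor, 1.56-fold lower (adjusted P = 0.00827). These 4 were the stable members.

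Muc2, the mucin that goblet cells secrete to build the mucus gel, had levels from 14.49 to 15.93 (median 14.82) on HFD and from 13.63 to 14.37 (median 14.10) on HFD + inulin. The diets did not overlap, and the highest HFD value, 15.93, was that of replicate 5, the array with ileal markers. Muc2 was 1.90-fold lower (log2 −0.93 ± 0.22, adjusted P = 0.0364), but the call was lost when any of 5 arrays was left out, namely replicates 4 and 6 of HFD and 1, 3 and 4 of HFD + inulin, with 0.101 as the highest adjusted P. Without HFD replicate 5 and HFD + inulin replicate 4 its adjusted P was 0.113, the same as after normexp background correction. Tpsg1, Agr2, Spdef, Sytl2 and Fcgbp were also called lower and not stable, with log2 differences of −1.04, −0.85, −0.84, −0.60 and −0.47. Spdef drives goblet cell maturation, Agr2 folds mucin in the endoplasmic reticulum and Fcgbp is a mucus component. Zg16 (−0.46, adjusted P = 0.0666), Tff3 (−0.36, adjusted P = 0.161) and Clca1 (−0.32, adjusted P = 0.494), products that goblet cells also secrete, did not pass the test, and the only difference above 0 was that of Ang4, at 0.24. The number of goblet cell genes called was between 5, without HFD replicate 6 or HFD + inulin replicate 4, and 12, when HFD + inulin replicate 5 was left out. It was 6 without HFD replicate 5 and HFD + inulin replicate 4, with a median of −0.59.

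No other mucin was called among the 8 measured. Muc13 and Muc4, mucins of the cell membrane, had differences of 0.44 (adjusted P = 0.0679) and 0.88 on the log2 scale. Among 31 genes of mucin glycosylation and sulfation, 1 was higher and 2 were lower, all stable. Galnt12, which starts mucin O-glycans, moved from a median of 13.47 to 13.90 (1.35-fold higher, adjusted P = 0.0157). Fut4, a fucosyltransferase, went from 9.83 to 9.14 (1.61-fold lower, adjusted P = 0.0191) and Chst4, a sulfotransferase, from 10.72 to 10.11 (1.59-fold lower, adjusted P = 0.00912). Of these, Chst4 was called without HFD replicate 5 and HFD + inulin replicate 4.

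**Figure D4:**
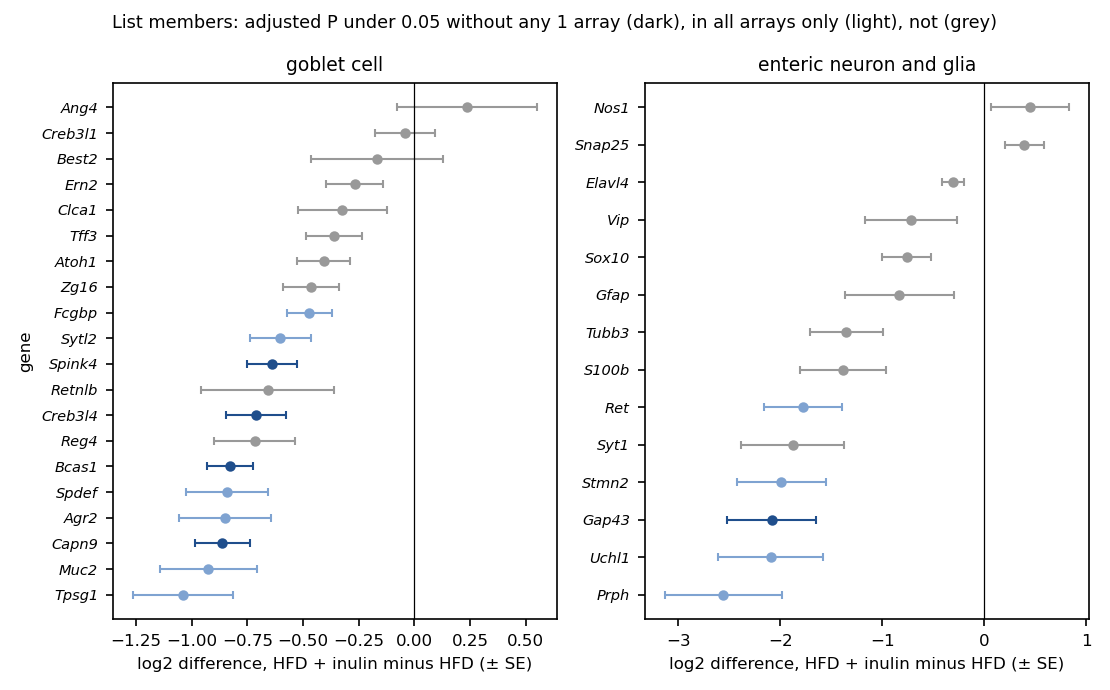
Log2 difference between HFD + inulin and HFD (horizontal axis, ± SE) of goblet cell (left) and enteric neuron and glia (right) markers (vertical axis). Dark points are stable genes, light points genes called but not stable and grey points genes not called; 19 of 20 goblet cell and, of the 14 neuron and glia markers drawn, 12 lie below 0.

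Carriers and enzymes of the absorptive cell moved in part. Slc5a8, the sodium-coupled carrier that brings short-chain fatty acids into the colonocyte, ranged from 9.58 to 11.43 (median 9.98) on HFD and from 11.18 to 12.14 (median 11.26) on HFD + inulin. One HFD array, replicate 5, reached into the inulin range, and the others lay below it. Slc5a8 was 2.46-fold higher (log2 1.30 ± 0.24, adjusted P = 0.0104), and without HFD replicate 5 and HFD + inulin replicate 4 its adjusted P was 0.000206. Slc26a3, the chloride and bicarbonate exchanger of the apical membrane, was the other of 14 genes of short-chain fatty acid transport and sensing that rose. Its levels were 12.70 to 14.55 (median 14.36) on HFD and 14.65 to 15.60 (median 15.12) on HFD + inulin, a 2.06-fold difference. The lowest HFD value was again that of replicate 5. Its call (adjusted P = 0.0388) was lost in 12 of the 22 fits without 1 array, with a highest adjusted P of 0.107 without HFD + inulin replicate 4. Slc16a1, the monocarboxylate carrier, had a difference of 0.20 (adjusted P = 0.514), and the receptor genes Ffar2 and Hcar2 had −0.29 and 0.19 on the log2 scale, none of them called.

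Of 15 genes of butyrate use and ketogenesis, 1 was called higher and 1 lower, with a median of 0.06. Acss1, which activates acetate in mitochondria, was 1.53-fold higher without overlap (12.98 to 13.41 on HFD and 13.66 to 14.19 on HFD + inulin, adjusted P = 0.00536). Oxct1, which activates ketone bodies for oxidation, was 1.97-fold lower (adjusted P = 0.0352), and its call was lost when any of 7 arrays was left out (HFD replicates 2, 4, 5 and 6 and HFD + inulin replicates 3, 4 and 5), with a highest adjusted P of 0.0887.

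Of 21 absorptive colonocyte markers, Car4 and Slc26a3 were called higher and 0 lower, with a median of 0.27. Without HFD replicate 5 and HFD + inulin replicate 4, 0 were called and the median was 0.13. Car4, a membrane carbonic anhydrase, moved from 12.87 to 13.64 (median 13.44) on HFD to 13.74 to 14.64 (median 14.26) on HFD + inulin without overlap. It was 1.77-fold higher and stable (adjusted P = 0.0144), with an adjusted P of 0.0626 without those arrays. In the list of 25 genes of colonic electrolyte transport, Slc26a3, Casr and Adora2b, an adenosine receptor, were called higher and 0 lower. Without those arrays 1 was called higher and 1 lower, and without HFD replicate 5 alone 2 were called lower. Adora2b was 2.65-fold higher (adjusted P = 0.0378), and its call was lost when HFD replicate 2, 4, 5 or 6 was left out, and likewise for replicates 3 and 4 of HFD + inulin.

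**Figure D5:**
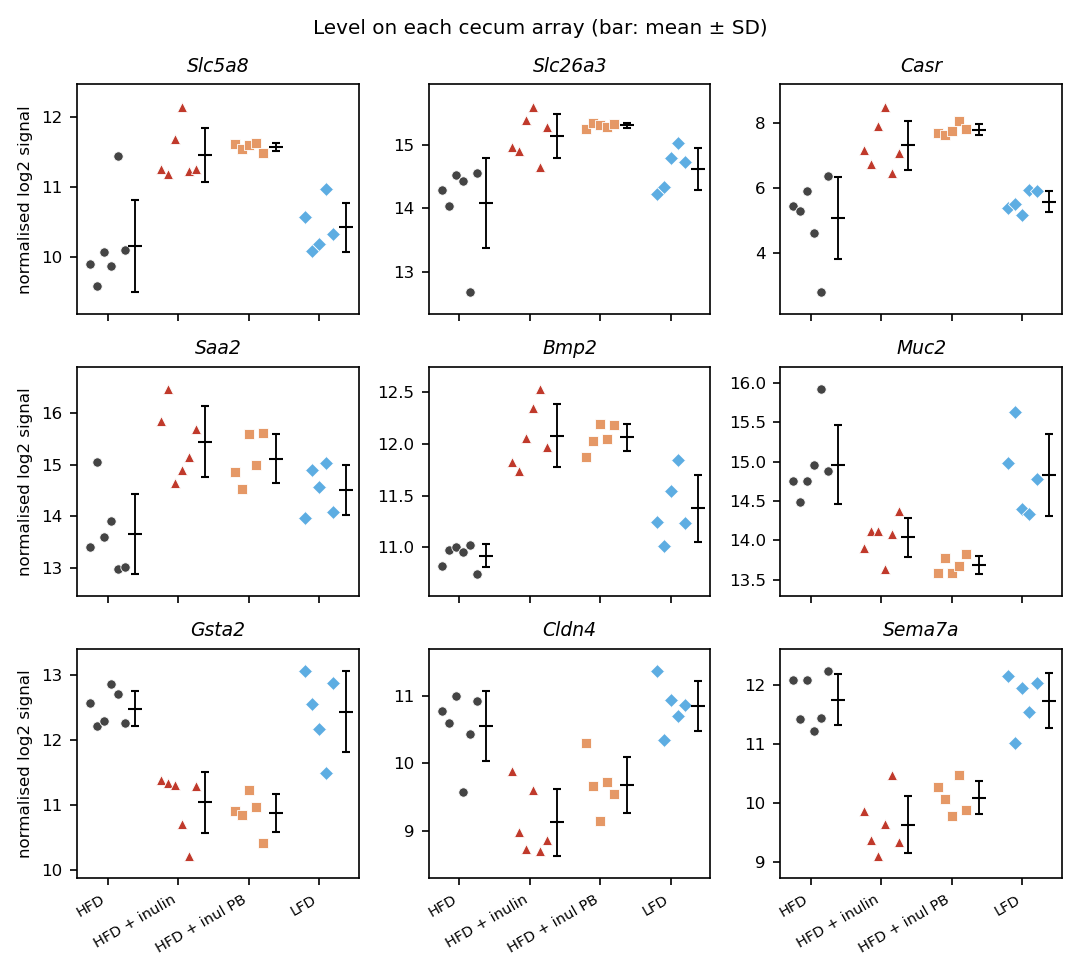
Normalised log2 signal (vertical axis) of 9 genes on each cecum array of the 4 diets (horizontal axis; each point is 1 array; bars, mean ± SD beside the points; n = 6, 6, 5 and 5). Slc5a8, Slc26a3, Casr, Saa2 and Bmp2 are higher on HFD + inulin than on HFD, and Muc2, Gsta2, Cldn4 and Sema7a lower.

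Several glutathione transferases fell. In 38 genes of xenobiotic and glutathione metabolism, 4 were called lower and 1 higher, all 5 stable and without overlap of the diets. Gsta2 ranged from 12.22 to 12.86 (median 12.43) on HFD and from 10.21 to 11.38 (median 11.30) on HFD + inulin, and was 2.72-fold lower (adjusted P = 0.00565). Gsta3 was 1.92-fold lower (adjusted P = 0.00249), Gsta4 1.69-fold lower (adjusted P = 0.00121) and the microsomal enzyme gene Mgst2 1.61-fold lower (adjusted P = 0.00168). These enzymes join glutathione to electrophiles and lipid peroxidation products. The sequence of Gsta2 is close to that of Gsta1, which had no probe by that name, so the reading of Gsta2 may hold both. Ces1f, a carboxylesterase, was 1.77-fold higher, with 12.59 to 13.02 on HFD and 13.38 to 13.85 on HFD + inulin (adjusted P = 0.000454). Each of these 5 was called without HFD replicate 5 and HFD + inulin replicate 4, when 6 members in all were lower. The median of the 38 differences was −0.04.

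In the list of 29 genes of eicosanoid metabolism and omega-hydroxylation, Cyp4f15 rose and Cyp4f14, of the same family, fell. Cyp4f14 had a median of 14.46 on HFD and 13.61 on HFD + inulin and was 2.05-fold lower (adjusted P = 0.0252), a call lost without HFD + inulin replicate 4 (adjusted P = 0.0650). Among 23 genes of retinoid metabolism, Rdh16, a retinol dehydrogenase, was 1.95-fold higher and stable (7.58 to 8.38 on HFD and 8.76 to 9.23 on HFD + inulin, adjusted P = 0.00148). Rbp2, the cellular retinol binding protein of enterocytes, fell by 0.69 on the log2 scale (adjusted P = 0.0358), not stably. Without HFD replicate 5 and HFD + inulin replicate 4, 2 retinoid genes were called higher and 0 lower. In lipid synthesis, Agpat2, of triglyceride and phospholipid synthesis, was 1.41-fold lower and stable (adjusted P = 0.0158), the only called gene of 21. Its adjusted P was 0.0525 without HFD replicate 5 and HFD + inulin replicate 4. Insig1, which holds back the activation of sterol synthesis genes, was 1.98-fold lower (adjusted P = 0.0215), a call lost when HFD replicate 6 was left out, and likewise for replicates 3 and 4 of HFD + inulin. It was the only called gene of 25 in the cholesterol synthesis list, in which 21 differences were below 0 with a median of −0.28.

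In the list of 26 junction genes, Cldn4 fell and Dsg2 rose. Cldn4, a claudin of the tight junction, ranged from 9.57 to 11.002 (median 10.69) on HFD and from 8.70 to 9.88 (median 8.92) on HFD + inulin, with overlap at the edges. It was 2.68-fold lower and stable (log2 −1.42 ± 0.26, adjusted P = 0.0095). The desmosomal cadherin Dsg2 was higher by 0.38 on the log2 scale (adjusted P = 0.0286), a call lost when replicate 1, 2, 4 or 6 of HFD was left out, and likewise for replicates 1 and 4 of HFD + inulin.

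Host defence genes that rose were Saa2, Saa1 and Duoxa2, 3 of 20 genes of the antimicrobial and acute phase list, with 0 lower and a median of 0.19. The counts depended on HFD replicate 5, without which 2 members were called lower. Without it and HFD + inulin replicate 4, 1 was called higher (Saa2) and 1 lower (Retnlb, a goblet cell product), and the median was 0.47. Saa1 and Saa2 encode serum amyloid A proteins, which epithelium makes in response to microbes, and Duoxa2 matures the hydrogen peroxide producing enzyme of the apical membrane. Saa2 had levels of 12.98 to 15.04 (median 13.50) on HFD and 14.64 to 16.46 (median 15.41) on HFD + inulin. The ranges overlapped at their edges. Saa2 was 3.45-fold higher and stable (log2 1.79 ± 0.35, adjusted P = 0.0137). Saa1 was 2.90-fold higher (adjusted P = 0.0400) and Duoxa2 2.68-fold higher (adjusted P = 0.0423), and these calls were lost in 12 and 13 of the 22 fits without 1 array. Saa3 and Lcn2, other acute phase genes of epithelium, had differences of 0.03 and 0.14. Reg3b (2.59) and Reg3g (1.62), lectins of the small intestine, had adjusted P of 0.63 and 0.683. Both differences depended on HFD replicate 5, without which they were 4.29 and 3.08 (adjusted P = 0.321 and 0.294), and that of Saa3 was −0.30.

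Saa1 and Saa2 are neighbours that share most of their sequence, so their probes may read both transcripts. Their promoters are shown because the genes moved together. The 150 bases before each start site are given 5′ to 3′ from RefSeq (GRCm38.p6), for Saa1 at chr7:46742981-46743130 on the minus strand and for Saa2 at chr7:46751683-46751832 on the plus strand. Capitals mark the bases that differ or have no partner when the pair is aligned.
Saa1: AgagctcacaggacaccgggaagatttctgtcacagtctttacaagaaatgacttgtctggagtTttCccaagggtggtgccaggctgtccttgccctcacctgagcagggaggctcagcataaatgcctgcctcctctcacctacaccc
Saa2: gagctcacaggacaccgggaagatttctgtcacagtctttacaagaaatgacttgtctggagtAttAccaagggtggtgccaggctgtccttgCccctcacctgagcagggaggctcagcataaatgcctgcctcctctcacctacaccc
Of 151 aligned columns, 147 were identical.

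Of 16 markers of enteric neurons and glia, 6 were called lower and 0 higher, with a median of −1.37. Only 7 of the 16 were well above background on all 12 arrays, so the median rests in part on levels near background. The summed signal of the list, in which Snap25 was the brightest member, had a median of 25976 on HFD and 32024 on HFD + inulin, the opposite direction, and the diets overlapped. Such a sum is weighted to the brightest probes. Gap43, the stable gene described among them, ranged from 8.47 to 9.89 (median 9.16) on HFD and from 5.05 to 8.21 (median 7.38) on HFD + inulin. The diets did not overlap, and the lowest value was that of HFD + inulin replicate 4. Prph, an intermediate filament of peripheral neurons, was 5.89-fold lower (adjusted P = 0.0302), a call lost without HFD replicate 2, 4, 5 or 6. Uchl1, Stmn2 and Ret, the receptor of the neurotrophic factor GDNF, fell by 2.09, 1.99 and 1.78 on the log2 scale, not stably. Snap25 (0.39, adjusted P = 0.352), Elavl4 (−0.31, adjusted P = 0.176) and the glial gene Sox10 (−0.76, adjusted P = 0.116) were not called. The number of called neuron genes was between 2, without HFD replicate 2 or 6, and 9. Without HFD replicate 5 and HFD + inulin replicate 4 it was 1, with a median of −1.0.

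Of the other layers, smooth muscle (18 genes) had no called member and a median of −0.32, or −0.13 without HFD replicate 5 and HFD + inulin replicate 4, and list means of −0.61 to 0.37 on HFD and −1.41 to 0.34 on HFD + inulin, with the lowest at replicate 4. The brightest smooth muscle gene was Tagln. Acta2 and Myh11, of the contractile apparatus, had differences of −0.42 and −0.35. The adipocyte list (17 genes) had a median of −1.02 and no called member. Its means were −1.06 to 1.45 on HFD and −3.08 to 0.68 on HFD + inulin, and Pnpla2 was its brightest member. Adipoq, a hormone made by fat cells, ranged from 9.91 to 14.00 (median 11.47) on HFD and from 3.50 to 12.72 (median 8.02) on HFD + inulin, with an adjusted P of 0.40. These levels moved with the neuron and glia markers on HFD + inulin replicate 4, and their part in the 6 lower calls was not tested.

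T and NK cell markers included 3 of 18 called lower, with a median of −0.41 and 16 differences below 0. Cd8a was 1.66-fold lower (adjusted P = 0.0200), a call lost without HFD + inulin replicate 4. Cd8b1, the partner chain of the CD8 co-receptor, was 1.84-fold lower (adjusted P = 0.0268) and Cd7 fell by 0.60 on the log2 scale (adjusted P = 0.0489), neither stable. The T cell receptor complex genes Cd3d and Cd3e had differences of −0.52 (adjusted P = 0.13) and −0.11. The B cell gene Ms4a1 had a difference of −0.53. The mast cell receptor Kit, which pacemaker cells of the gut also carry, fell by 0.61 on the log2 scale (adjusted P = 0.0476), a call lost in 19 of the 22 fits without 1 array. Kit was the only called gene of 10 mast cell markers, with 6 differences above 0, 4 below and a median of 0.03. The median was −0.13 without HFD replicate 5 and HFD + inulin replicate 4. None of these lymphoid and mast cell genes was called without HFD replicate 5 and HFD + inulin replicate 4.

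Genes of the crypt and of signalling moved singly. Lgr5, the receptor that marks crypt base stem cells, ranged from 9.12 to 9.63 (median 9.37) on HFD and from 8.60 to 9.15 (median 8.88) on HFD + inulin, barely overlapping. It was 1.41-fold lower (adjusted P = 0.0191), with an adjusted P of 0.0534 when HFD + inulin replicate 4 was left out and 0.051 when HFD replicate 6 was. Myc, a transcription factor of growth, fell by 0.66 on the log2 scale (adjusted P = 0.0463), not stably, and these were the 2 called genes among 18 stem cell markers. Among 30 genes of cell cycle 0 were called, with Mki67 at 0.05 and Top2a at −0.22. Bmp2, a growth factor of the upper crypt that restrains stem cells, ranged from 10.75 to 11.02 (median 10.97) on HFD and from 11.74 to 12.53 (median 12.01) on HFD + inulin. The diets were far apart, with a fold difference of 2.23 (log2 1.16 ± 0.14, adjusted P = 0.000454), and Bmp2 was the only called gene of 30 in the Wnt, Notch, Hedgehog and BMP list.

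Sct, the hormone secretin, ranged from 15.59 to 15.88 on HFD and from 14.79 to 15.41 on HFD + inulin and was 1.42-fold lower and stable (adjusted P = 0.0104). Scg2, a granin of secretory granules that nerve cells share, was the other called gene of 18 enteroendocrine markers and fell by 2.00 on the log2 scale (adjusted P = 0.0452), not stably. Of these 18 differences, 11 were above 0 and 7 below, with a median of 0.06. The median was −0.03 without HFD replicate 5 and HFD + inulin replicate 4. In the immediate early list of 21 genes, Fosb was 1.91-fold lower and stable (7.27 to 8.26 and 6.60 to 7.11, adjusted P = 0.00536), and the phosphatase gene Dusp1 was higher by 0.70 on the log2 scale (adjusted P = 0.0393), not stably. Of 23 chemokines, Cx3cl1 rose by 0.34 on the log2 scale (adjusted P = 0.0412) and Ccl9 fell by 0.70 (adjusted P = 0.0260), neither stable.

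Lists without any called gene, beside those given, covered other epithelial cells, stroma and several metabolic pathways. Tuft cell genes Dclk1 and Trpm5 had log2 differences of 0.23 and −0.17. Ileal Fabp6 and Slc10a2 had −1.39 and 1.12. In stroma, Col1a1 and Col1a2 had 0.23 and −0.03, Pecam1 and Cdh5 of endothelium 0.07 and 0.13, and Adgre1 and Csf1r of macrophages −0.17 and −0.10. Of the 16 endothelium differences, however, 10 were below 0 and 6 above, with a median of −0.15. Pecam1 was highest on HFD + inulin replicate 5, at 8.75, and the next highest array of that diet had 8.07. In metabolism, Ppara and Cpt1a of fatty acid oxidation had −0.23 and −0.06, the bile acid transporter genes Slc51a and Slc51b −0.45 and −0.92, and the respiratory chain genes Ndufa1 and Ndufa2 −0.01 and 0.06. Calcium absorption genes Trpv6 and S100g had 0.36 and −1.44, the glucose carrier Slc2a1 0.12, and the endoplasmic reticulum chaperones Hspa5 and Hsp90b1 −0.19 and −0.14. The cytokine Il1b had 0.49, the interferon response genes Ifit1 and Ifit2 had 0.05 and 0.52, the clock genes Arntl and Clock had 0.27 and −0.10, and pancreatic Cela1 had 0.21. Several of these values rested on HFD replicate 5. Without it the difference was 0.01 for Fabp6, −0.08 for Slc51a, 0.03 for Trpv6, −0.07 for Cela1 and −0.10 for Slc2a1, with the sign turned for Fabp6, Cela1 and Slc2a1. Cfd, an adipocyte complement factor, had −3.40 with an adjusted P of 0.52.

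On the other cecum diets, which share the HFD arrays with this comparison, the levels of the main genes were as follows. On HFD + inul PB the medians were 11.09 for Tex19.1, 11.59 for Slc5a8, 12.05 for Bmp2, 14.98 for Saa2, 13.67 for Muc2 and 10.06 for Sema7a. On LFD they were 7.27, 10.32, 11.25, 14.57, 14.78 and 11.95 in the same order.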

How the data were processed

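The authors deposited for each array the spot table of Agilent's Feature Extraction software, whose processed signal is an intensity on a linear scale with background subtracted and no normalisation between arrays. The authors also deposited a table of log2 values of the same arrays, described in their methods as normalised by cyclic loess in R with identical probes averaged; it served as an alternative. The study's methods compared each diet with HFD by LIMMA.

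Here control spots and spots marked as outliers were left out. Processed signals, taken to log2, were normalised together over the 22 cecum arrays by cyclic loess (span 0.7, 3 iterations). Spots sharing a probe were averaged. The 4 cecum diets entered one LIMMA model (limma 3.58.1, with data.table (1.17.8) for reading, in R 4.3.3), with the Benjamini-Hochberg adjustment over 55681 probe IDs. No batch term was used. Leave-one-out fits used the same normalised values.

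Diets and replicate numbers came from the sample titles. All 22 arrays were kept, and no sample column was left unused. The labels give no pairing with other tissues. The study describes the arrays as cecum of mice of each diet. P-values rest on the spread between samples within each diet, estimated over all 22 arrays and not from the compared diets alone. Slide and replicate number were not taken into account in them.

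Gene symbols were looked up by transcript accession in RefSeq (GRCm38.p6). In all 27509 probe IDs matched a symbol and 25302 a known gene, predicted and unnamed genes being left out. The probe brightest on average over the 22 arrays stood for a gene (5232 genes had more than 1). In all, 19 list genes had no probe by that name and are not analysed here. Promoters came from RefSeq too, and no other sequence was used.

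Named genes followed a rule: the 12 largest rises and 12 largest falls among stable genes without overlap and well above background on every array of the higher diet; in each list up to 4 called genes per direction, stable ones first and then by size, or the first 2 members where none was called; and the first 2 of the adipocyte, lymphoid, pancreas and ileum lists. Agr2, Spdef, Sytl2, Fcgbp, Tpsg1, Ret, Stmn2, Retnlb, and the further genes given with no call in those lists were named after their values were seen. The genes, lists and tests were chosen with earlier results of these data known, and the lists are therefore descriptions.

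Alternatives were scaling to the 75th percentile, quantile normalisation, pairwise cyclic loess, normexp background correction (offset 50), the authors' log2 values, outlier spots kept, a filter on probes well above background, the 12 arrays alone, slide, scan day, replicate number, or slide with row and column as blocks, and leaving out each array. The script was tested on simulated data. A few genes of the lists and of the largest differences are counted but not reported by name here.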

Additional observations from a re-analysis of the deposited data

Results flagged for a closer look

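In each diet the lowest and the highest of the 6 arrays were compared with the rest by Dixon's gap ratio, over 216 groups of named genes and 86 groups of list means. An array lay far from the others in 36 cases, 25 genes and 11 list means. Chance alone picks about 1 in 20 groups.

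HFD replicate 5 accounted for 20 cases. Its levels were high for Fabp6 (18.8), Muc2 (15.9), Slc5a8 (11.4), Slc51a (15.5) and Creb3l4 (10.996) and low for Cyp4f15 (5.00), Mal (13.0), Cyp2d9 (6.66), Cela1 (9.01), Slc26a3 (12.7) and Trpv6 (3.94). Its list means, relative to the HFD mean, were 5.12 for ileal enterocyte and Paneth cell, 1.84 for amino acid, sugar and nucleoside transport, 1.79 for antimicrobial and acute phase, 0.95 for bile acid and steroid handling, 0.40 for the secretory pathway, 0.39 for chemokines, 0.32 for tuft cell, −0.24 for the respiratory chain and −0.31 for butyrate use and ketogenesis. HFD replicate 2 had low levels of Cd3d (9.03) and Gsta4 (9.66) and a high level of Dusp1 (9.86). It had levels of 3.28 for Slc2a2 and 2.79 for Il1a, probes not well above background there. Its fibroblast and matrix mean was 0.59. HFD replicate 4 had the lowest levels of Insig1 (7.85) and Ifit1 (11.3).

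On HFD + inulin, replicate 4 had the lowest levels, at 3.58 for Rbfox1, 15.9 for Spink4 and 10.2 for Gsta3. Replicate 5 had a low level of Lypd6b (3.57), a high one of Pecam1 (8.75) and a mean of 0.56 for Wnt, Notch, Hedgehog and BMP signalling. Replicate 6 had the highest levels of Cd8b1 (6.29) and Cd8a (7.35). The cause of these levels was not tested.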

How the results depend on the processing

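The counts of calls moved with the processing and the arrays. No stable gene changed direction under any alternative run, but these genes were chosen on the same arrays, so this is no independent support. At an adjusted P under 0.05, against 878 probe IDs, 1.35% of known genes higher and 1.32% lower, scaling to the 75th percentile gave 368 probe IDs, 0.562% and 0.594%, and the filter on probes well above background gave 1803 (of 27180), 3.96% and 3.85%. The 12 arrays alone gave 46, 0.0788% and 0.0893%, and the blocks of slide, row and column gave 0 of each. Slide as a block gave 1331 probe IDs and 2.05% of genes lower. Against 1375 probe IDs by fold and unadjusted P, normexp gave 630 and the authors' values 743. Leaving out HFD replicate 5 and HFD + inulin replicate 4, added after seeing the data, gave 426 probe IDs, 0.746% and 0.667%, and 1098 probe IDs by fold and unadjusted P. Leaving out each array in turn gave 331 to 1369 probe IDs, 0.578% to 2.03% of genes higher, 0.473% to 1.87% lower, and 1060 to 1600 probe IDs by fold and unadjusted P. The cause was not tested beyond the construction of each setting, such as fewer arrays or fewer probes tested.

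Samples of the diets share replicate numbers, but the labels do not say that a number marks a cage, litter or day. In both diets a number stood for the same slide and the same row on it. The correlations of same-numbered arrays' deviations were 0.07 to 0.18, above 0.1 in 4 of 6 pairs, and 5 of 6 inulin arrays correlated best with their own number. The replicate block in the 12 arrays gave 4 probe IDs, with 0% of known genes higher and 0.0158% (3 genes) lower. Of the 179 stable genes it called 0 higher and 2 lower, and the blocks of slide, row and column called 0.

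Of the 68 named genes that were called, the 12 arrays alone called 18, the fit without HFD replicate 5 and HFD + inulin replicate 4 called 38, the replicate block 2, the blocks of slide, row and column 0, scaling to the 75th percentile 50, quantile normalisation and normexp 63 each, cyclic loess over all pairs 67, the authors' values 62, and slide or scan day as a block 68 each. Signal over background limits Fer1l4 and Cpne4 to bounds. The lower diet of other named genes was only in part well above background, among them 1 of 6 inulin arrays for Rbfox1, 3 of 6 for Cnr1, 4 of 6 for Lypd6b, Prss12 and Cd8b1, and, of 6 HFD arrays, 3 for Tex19.1 and Tmc1 and 4 for Casr and Plcd4.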

Other observations

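Some stable genes lay outside the lists and were picked here after their values were seen, as a description only. The ribosomal protein genes Rpl10a (log2 −0.36 ± 0.07 SE, adjusted P by LIMMA = 0.0123) and Rpl5 (−0.39, adjusted P = 0.00962) fell, and so did Wdr43 (−0.39, adjusted P = 0.0116), Nle1 (−0.47, adjusted P = 0.0108), Nop2 (−0.48, adjusted P = 0.00741) and Gnl3 (−0.69, adjusted P = 0.00881), which are known from the nucleolus. Other genes of these kinds were not counted, so that nothing is said of them as a group. Mycn, a relative of Myc, had a difference of −0.92 (adjusted P = 0.0161), with an adjusted P of 0.0629 without HFD replicate 5 and HFD + inulin replicate 4. Creb3l3, a membrane-bound transcription factor of lipid metabolism in liver and gut, fell by 1.35 on the log2 scale (adjusted P = 0.00934), and Plaur, the urokinase receptor, by 1.48 (adjusted P = 0.0143).

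Maoa, which breaks down serotonin and other monoamines, had the smallest adjusted P of these genes. Its level was 12.5 ± 0.19 on HFD and 13.5 ± 0.21 on HFD + inulin (mean ± SD, n = 6 each), without overlap, and the log2 difference was 1.05 ± 0.11 (LIMMA adjusted P = 0.000276). Slc35d1, a carrier of nucleotide sugars, rose by 1.27 (adjusted P = 0.00687), Mov10, an RNA helicase that restrains retrotransposons, by 1.00 (adjusted P = 0.00656), the bacterial sensor Nod2 by 0.77 (adjusted P = 0.0155) and the prostaglandin carrier Slco2a1 by 0.71 (adjusted P = 0.00412), all on the log2 scale. Each was called without HFD replicate 5 and HFD + inulin replicate 4. Rab27b, a regulator of secretory granule release, fell by 0.79 (adjusted P = 0.000948).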
